A study of Mus musculus with 9 samples.

Results

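The reads described here are those that the deposited annotation placed in whole classes of RNA named after Ensembl, Rfam or piRNAdb, rather than in a single miRNA, tRNA, rRNA or Y RNA. They were chosen by their class names: 18 classes began with ensembl-, 13 with Rfam-, and 1 was the piRNA class of piRNAdb. These 32 classes stood among 996 small RNA features in all, beside 661 miRNA precursors, 293 tRNA parts, 8 rRNAs and 2 Y RNAs. In each class the reads that matched the mouse genome and those that did not were summed and set against the clean reads of the library, in reads per 1000000 clean reads (RPM). The choice rested on class names and not on measured values, although earlier results of these data were known when it was made.

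Small RNA was sequenced by PANDORA-seq from atrial appendages of C57BL/6 mice in 3 groups of 3 libraries. Young mice were 5 months old and received no curcumin, old mice were 18 months old and received no curcumin, and curcumin mice were 18 months old and had been given curcumin, a polyphenol of turmeric, at 100 mg/kg per day in skim milk from the age of 12 months. PANDORA-seq treats RNA with AlkB, an enzyme that removes methyl groups which stop reverse transcription, and with T4 polynucleotide kinase, which repairs RNA ends so that adapters can be joined. RNA of 15 to 45 bases was then cut from a gel, so longer RNAs of these classes could enter a library only as fragments. The comparisons ask how the atrial small RNA of old mice differed from that of young mice, and whether curcumin altered it.

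The classes cover RNAs of very different work. Small nuclear RNAs (snRNAs) form the core of the spliceosome, and small nucleolar RNAs (snoRNAs) guide the methylation and pseudouridylation of rRNA, while their relatives in Cajal bodies (scaRNAs) guide the same changes in snRNAs. PIWI-interacting RNAs (piRNAs) silence transposons in the germ line, and a read counts as one here only because its sequence matched the piRNA database. Long intergenic non-coding RNAs (lincRNAs), antisense and intronic transcripts are long, and their short fragments carry no function that these files name.

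Together the 32 classes held 16.1% to 21.6% of the clean reads of a library, and the group means of this share differed by less than the spread between replicates. It was 16.6%, 19.8% and 21.5% in young replicates 1 to 3 (mean 19.3% ± 2.48, SD, n = 3). In old mice it was 17.4%, 20.0% and 19.8% (19.0% ± 1.42, n = 3). In curcumin mice it was 16.1%, 21.6% and 20.0% (19.2% ± 2.80, n = 3). The piRNA class alone made up 65.2% to 72.6% of these reads, and without it the other classes held 5.22% to 6.52% of clean reads. No class passed the test in any of the 3 comparisons, by edgeR, DESeq2 or limma-voom.

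**Figure D1:**
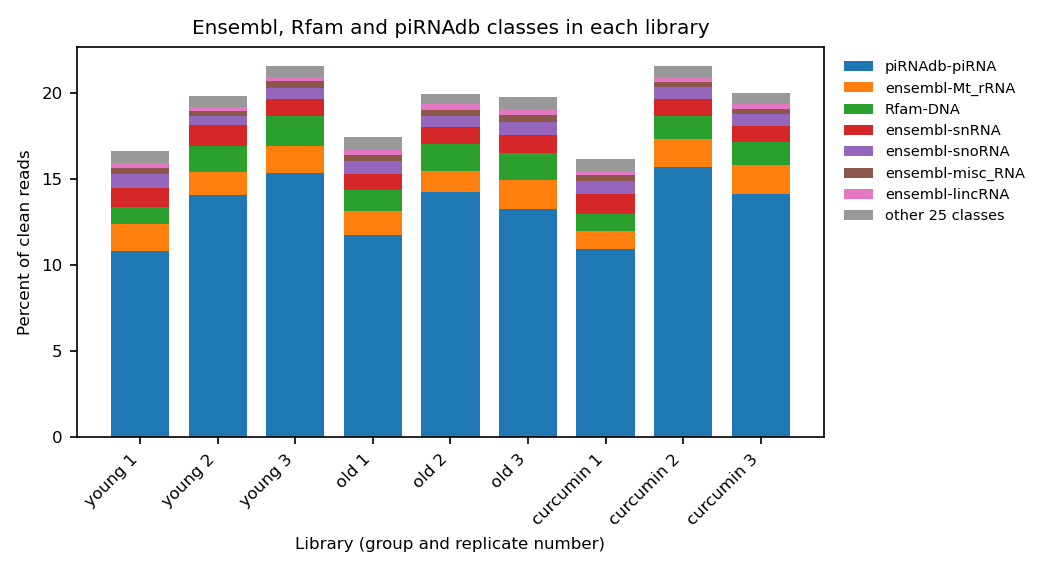
Percent of clean reads in the Ensembl, Rfam and piRNAdb classes, stacked, for each of the 9 libraries. The piRNA class of piRNAdb is the tallest block everywhere, between 10.8% and 15.7% of clean reads, and replicate 1 has the shortest column in each group.

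The libraries held 12899427 to 19707803 clean reads, and 83.7% to 87.3% of them fell in the 996 features. The 95% Wilson interval of a share of clean reads reached at most 0.0224 percentage points above or below it, and 3 reads, the limit that a count of 0 allows, came to 0.152 to 0.233 RPM. Both describe counting error alone, because several reads can come from 1 molecule. Nothing in the labels says whether the replicates of a group were separate mice or repeated libraries, although the design gives 3 mice per group, so p-values measure the spread between these libraries. The defining miRNAs of heart and striated muscle were present, with a summed level of 3767 to 18185 RPM (7 of 7 precursors with reads), while those of liver, epithelium and neurons stayed at or below 5.23 RPM. In these bulk samples, fewer cells of a type and less RNA per cell cannot be told apart.

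The 3 libraries numbered 1 stood apart from the rest. In them 48.9% to 55.6% of the reads of the 32 classes matched the genome, against 39.5% to 45.9% in the other 6 libraries. No label says what the replicate number stands for. Without these libraries the share of clean reads in the 32 classes was 20.67% in young, 19.87% in old and 20.78% in curcumin mice.

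The piRNA class was the largest by reads, and its group means differed by less than the spread between replicates. It was at 108407, 140797 and 153200 RPM in young replicates 1 to 3, at 117631, 142613 and 132686 RPM in old mice, and at 109156, 156768 and 141197 RPM in curcumin mice. The 3 groups overlapped fully, and replicate 1 was the lowest of its group in each of them. The fitted difference was -0.03 on the log2 scale between old and young mice (95% interval -0.47 to 0.40), 0.05 between curcumin and old mice (-0.39 to 0.49) and 0.02 between curcumin and young mice (-0.42 to 0.45). Without the libraries numbered 1 these differences were -0.10, 0.11 and 0.02. The deposited values name no single piRNA in this class, so no piRNA sequence can be shown with a value.

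Most piRNA reads did not match the genome. The share that matched was 37.8%, 27.4% and 23.9% in the young libraries. It was 32.0%, 26.0% and 27.9% in the old libraries. With curcumin it was 33.0%, 28.6% and 29.7%. It was highest in replicate 1 of each group. The part of the class that matched the genome varied little, from 35974 RPM in curcumin replicate 1 to 44763 RPM in curcumin replicate 2. The part that did not match ranged from 67425 RPM in young replicate 1 to 116605 RPM in young replicate 3, and was lowest in replicate 1 of each group. It made up 25.6% to 34.8% of all clean reads without a genome match.

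The class called Rfam-DNA showed the same split. The labels do not say which Rfam entries it holds. It was at 9906, 15136 and 17959 RPM in young mice, 12149, 15468 and 15739 RPM in old mice, and 9810, 13254 and 12878 RPM in curcumin mice. Again replicate 1 was the lowest of each group, and the groups overlapped. Between 31.6% and 50.6% of its reads matched the genome, with the highest share of each group in replicate 1. The matched part stayed between 4518 and 6182 RPM, while the unmatched part ranged from 4891 to 12260 RPM. The fitted log2 difference of -0.27 between curcumin and old mice (SE 0.25, 95% interval -0.83 to 0.29) did not pass edgeR's test (adjusted p = 0.832).

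**Figure D2:**
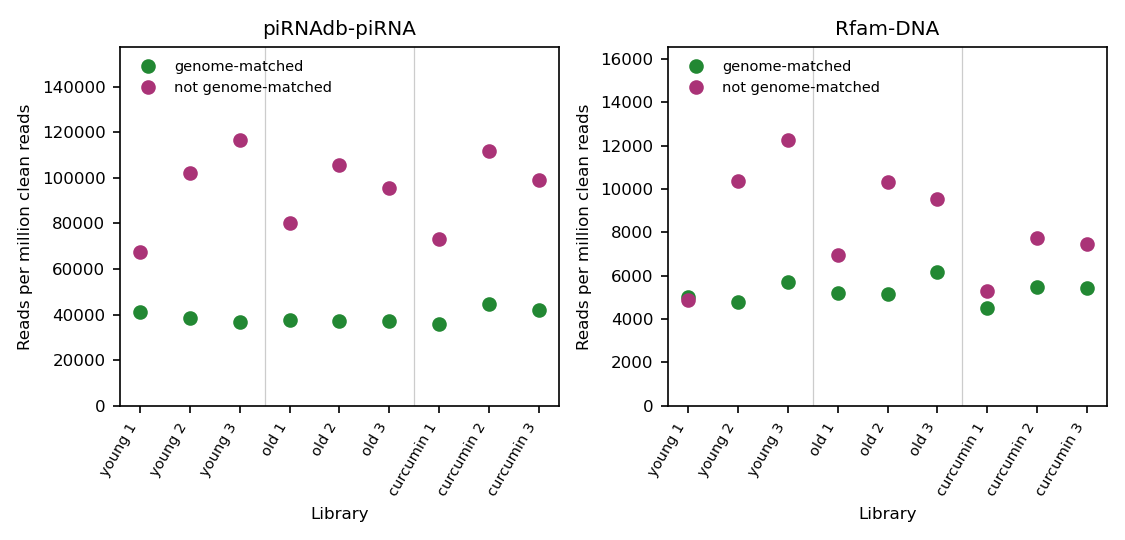
RPM of the piRNAdb-piRNA class (left) and the Rfam-DNA class (right) in each library, split into reads that matched the genome (green) and reads that did not (purple). Matched piRNA reads stay between 35974 and 44763 RPM in all 9 libraries, while unmatched ones range from 67425 to 116605 RPM and are lowest in replicate 1 of each group.

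Apart from these classes, nearly all Ensembl reads matched the genome, while the Rfam classes differed widely among themselves. In every tested Ensembl class 96.9% to 100% of the reads matched the genome. Rfam-snRNA had no matched read in any library, Rfam-other had 1.32% to 3.89%, Rfam-other_RNA 2.16% to 7.31% and Rfam-gene_region 5.97% to 10.0%. Rfam-mt_DNA, Rfam-mRNA and Rfam-rRNA lay between, at 24.4% to 47.6%, 60.5% to 71.3% and 59.5% to 74.6%, and Rfam-snoRNA was at 93.3% to 100%. For the Rfam classes, a read that did not match the genome still matched the Rfam entry. The sources used here do not give the species of these entries.

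Spliceosomal RNA in the Ensembl class made up 0.932% to 1.22% of clean reads. The Ensembl snRNA class stood at 10772, 12203 and 9705 RPM in young mice, 9543, 9843 and 10299 RPM in old mice, and 11677, 9486 and 9322 RPM in curcumin mice. Its coefficient of variation over the 9 libraries was 9.99%, and the groups overlapped. Rfam-snRNA, which holds snRNA reads without a genome match, was at 1142, 514 and 642 RPM in young mice. In old mice it was at 904, 470 and 814 RPM, and in curcumin mice at 789, 1096 and 840 RPM. No replicate number was high or low in all 3 groups in this class, which came to 4.21% to 11.6% of the Ensembl snRNA reads.

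Fragments of the guide RNAs also varied little. The Ensembl snoRNA class was at 8127, 5462 and 6508 RPM in young mice, 7697, 6545 and 7972 RPM in old mice, and 7557, 7205 and 6896 RPM in curcumin mice. Young replicate 2 was the lowest of the 9 and also had the highest snRNA class, so that its ratio of snRNA to snoRNA reads was 2.23, against 1.24 to 1.55 in the other 8 libraries. The scaRNA class, at 92.5 to 116 RPM, varied least of all the tested classes, with a coefficient of variation of 7.61%. Rfam-snoRNA held 2.48 to 4.47 RPM. Of these 3 classes, all 3 had a positive fitted difference between old and young mice and 1 had a positive one between curcumin and old mice, with none passing edgeR's test.

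Mitochondrial rRNA, the RNA of the mitochondrial ribosome, came from 2 genes in the GENCODE vM21 annotation of GRCm38 (mm10). They are mt-Rnr1, on the plus strand at chrM:70-1024, and mt-Rnr2, on the plus strand at chrM:1094-2675. The Ensembl Mt_rRNA class was at 15486, 13105 and 15665 RPM in young mice, 13630, 12061 and 16538 RPM in old mice, and 10799, 16661 and 17162 RPM in curcumin mice. The highest and the lowest library were both of the curcumin group. Mitochondrial rRNA also had entries of its own in rRNAdb, where 16S rRNA stood at 19380 to 28205 RPM and 12S rRNA at 161 to 316 RPM. Each clean read was counted in only 1 class, and the Ensembl class came to 0.546 to 0.652 times the sum of the rRNAdb entries, so a total of mitochondrial rRNA from either source alone would leave out a large part of these reads.

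The remaining classes with a counterpart in another database were small beside it. The Ensembl miRNA class, reads not already counted under miRBase, was at 498, 653 and 726 RPM in young mice, 580, 720 and 758 RPM in old mice, and 636, 582 and 572 RPM in curcumin mice. That was 1.07% to 5.86% of the miRBase total, which itself ranged from 12276 to 46604 RPM. Young replicate 1 had the highest miRBase total and the lowest Ensembl miRNA class. The Ensembl rRNA class stood at 113, 152 and 219 RPM in young mice, 125, 270 and 257 RPM in old mice, and 170, 160 and 160 RPM in curcumin mice. It followed 5S rRNA of rRNAdb closely, at 1.00% to 1.26% of its level in every library. Rfam-rRNA held 191 to 285 RPM, and Rfam-tRNA had reads in 2 libraries only, with 7 reads in all.

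**Figure D3:**
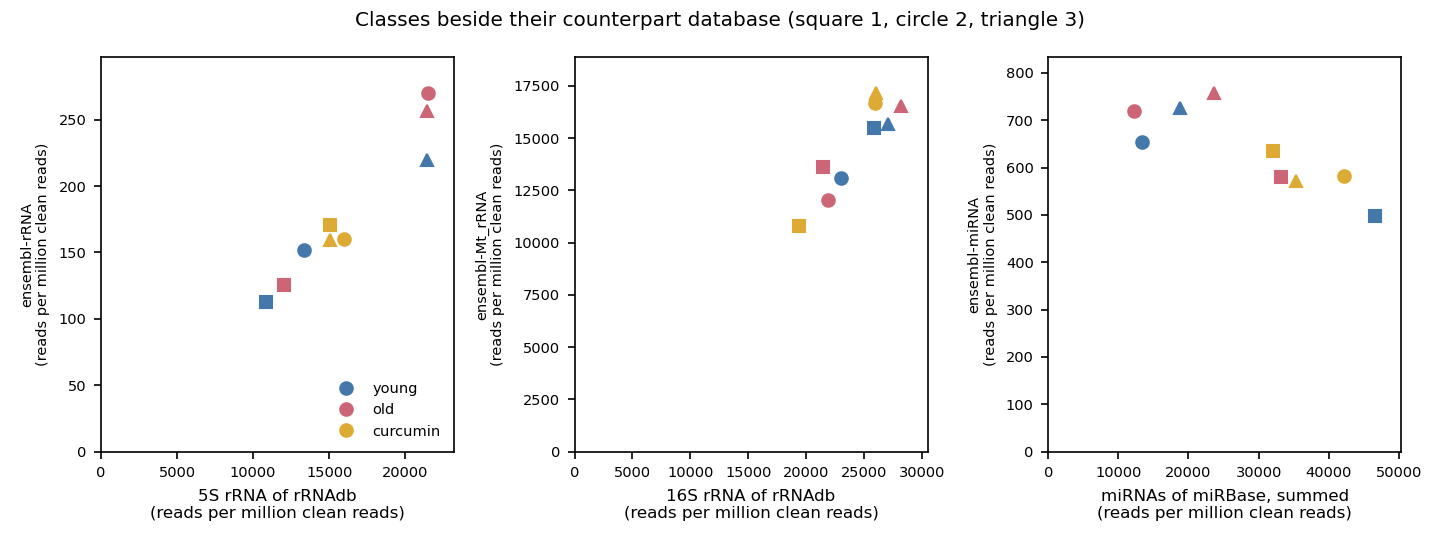
RPM of 3 Ensembl classes (vertical axes) against the RPM of the same kind of RNA in rRNAdb or miRBase (horizontal axes), 1 point per library, coloured by group and shaped by replicate number. Ensembl rRNA lies at 1.00% to 1.26% of 5S rRNA throughout, whereas Ensembl miRNA is lowest, at 498 RPM, in the library with the highest miRBase total.

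Among the long non-coding classes, lincRNA had the smallest p-value of the 24 tested classes in 2 of the 3 comparisons. The lincRNA class was at 3138, 2532 and 2818 RPM in young mice, at 3163, 3197 and 3645 RPM in old mice, and at 2534, 2730 and 2666 RPM in curcumin mice. Every old library lay above every young and every curcumin library. Of all 520 tested features, 4.04% did not overlap between old and young mice and 12.7% between curcumin and old mice. Old mice differed from young mice by 0.24 on the log2 scale (SE 0.19, 95% interval -0.19 to 0.67; edgeR adjusted p = 0.995). Curcumin mice differed from old mice by -0.34 (SE 0.19, 95% interval -0.76 to 0.09; edgeR adjusted p = 0.832), and from young mice by -0.10 (SE 0.19). Both comparisons with old mice share the old libraries, so they do not support each other. GENCODE vM21 lists 5854 lincRNA genes, among them an entry for Rmrp, the RNA of the RNase MRP enzyme, which the same annotation also lists as a ribozyme.

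Summed marker miRNAs of leukocytes and smooth muscle also lay apart between the old and curcumin libraries, and no test of these lists was run. In this comparison 12.7% of all 520 tested features did not overlap. All miRBase miRNAs together were at 33195, 12276 and 23674 RPM in old mice and at 32056, 42219 and 35269 RPM in curcumin mice. The lists were not set against that total, so a change of a cell type cannot be told apart from one of all miRNAs. Summed leukocyte miRNAs (4 of 4 precursors with reads) were at 42.5 to 87.9 RPM in old and 93.2 to 130 RPM in curcumin mice, and summed smooth muscle miRNAs (2 of 2) at 174 to 553 RPM in old and 584 to 774 RPM in curcumin mice, with no overlap in either. Young libraries spanned 36.7 to 369 RPM for the leukocyte and 212 to 688 RPM for the smooth muscle list, overlapping the old ones in both. Muscle, endothelial, red blood cell, epithelial, liver and neuron lists overlapped between old and curcumin mice. Muscle miRNAs were at 3767 to 11949 RPM in old and 11504 to 18185 RPM in curcumin mice, and the endothelial precursor mir-126a was at 3039 to 8519 and 7720 to 9066 RPM. Red blood cell miRNAs (4 of 4) were at 36.5 to 42.5 RPM in old and 24.6 to 57.6 RPM in curcumin mice. In young replicates 1 to 3 the red blood cell list was at 296, 38.1 and 76.0 RPM. The leukocyte list was there at 369, 36.7 and 48.0 RPM, so young replicate 1 set the top of both ranges. The part of these markers in the lincRNA difference was not tested. Without the libraries numbered 1, lincRNA differed by 0.35 between old and young mice and by -0.34 between curcumin and old mice.

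Beside lincRNA, the class of processed transcripts was at 2737, 1409 and 1766 RPM in young mice, 2370, 1773 and 2313 RPM in old mice, and 2142, 2180 and 2003 RPM in curcumin mice. Antisense transcripts stood at 1423, 1303 and 1029 RPM in young mice, 1158, 1114 and 1099 RPM in old mice, and 1239, 994 and 1049 RPM in curcumin mice. The antisense class was the only 1 of the 24 tested classes that was highest in replicate 1 of all 3 groups. Transcripts from bidirectional promoters were at 26.2, 17.7 and 19.85 RPM in young, 27.7, 24.9 and 24.6 RPM in old, and 22.2, 24.5 and 21.1 RPM in curcumin mice. Curcumin lay below old mice without overlap, but only just. The closest libraries were curcumin replicate 2 at 24.48 RPM (423 reads) and old replicate 3 at 24.56 RPM (411 reads). Of all features, 12.7% did not overlap in this comparison. Sense intronic transcripts ranged from 122 to 185 RPM and sense overlapping ones from 3.37 to 5.89 RPM. Whether antisense reads were counted by strand is not given in the sources used here, so they cannot be told apart from reads of the genes on the other strand.

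Housekeeping non-coding RNA was steady. The Ensembl misc_RNA class, whose members in GENCODE vM21 include the 7SK RNA that holds back transcription elongation (Rn7sk), stood at 3415, 2828 and 3620 RPM in young mice. In old mice it was at 3278, 3747 and 3926 RPM, and in curcumin mice at 3332, 3206 and 3319 RPM. The ribozyme class was at 51.25 to 68.1 RPM with a coefficient of variation of 8.64%. Its members in GENCODE vM21 include the RNA subunits of RNase P (Rpph1) and RNase MRP (Rmrp). The misc_RNA and ribozyme classes both overlapped across all 3 groups.

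The least even classes were 2 Rfam collections without a named RNA type. Rfam-other was at 212, 693 and 252 RPM in young mice, 753, 410 and 483 RPM in old mice, and 496, 332 and 607 RPM in curcumin mice, a coefficient of variation of 40.1%. Rfam-other_RNA was at 94.4, 296 and 330 RPM in young mice, 147, 332 and 201 RPM in old mice, and 140, 211 and 188 RPM in curcumin mice, with 39.9%. Replicate 1 was the lowest of each group in Rfam-other_RNA, but the highest in old mice in Rfam-other. Rfam-mRNA, at 298 to 434 RPM, was lowest in replicate 1 of each group as well. Rfam-mt_DNA ranged from 10.2 to 19.8 RPM and Rfam-gene_region from 6.45 to 11.1 RPM.

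**Figure D4:**
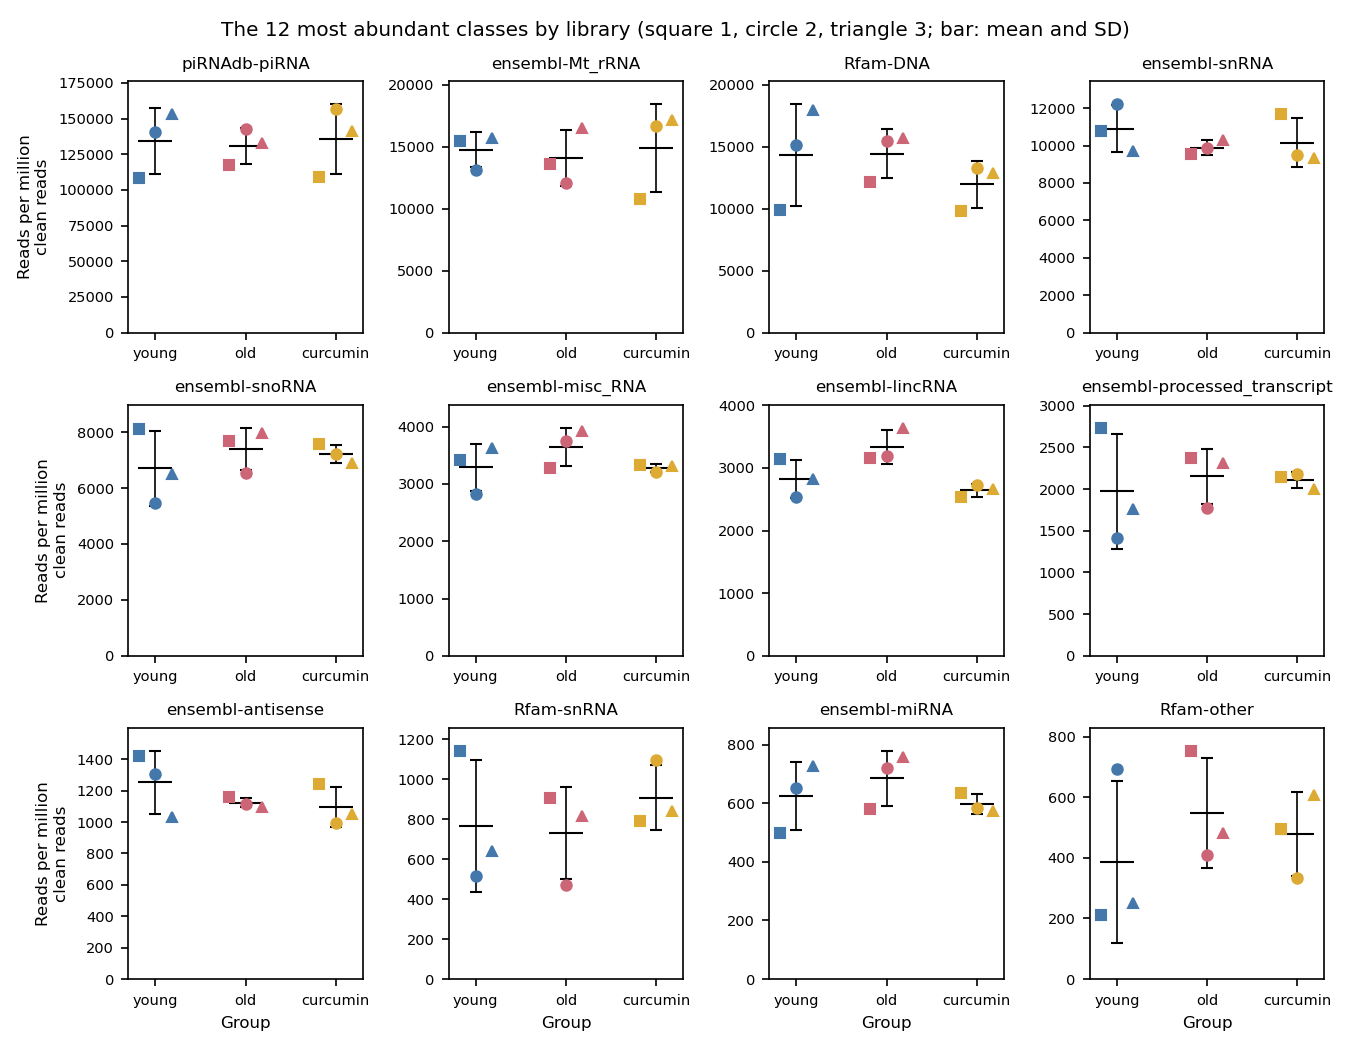
RPM of the 12 classes with the most reads in each library, by group, with squares, circles and triangles for replicates 1, 2 and 3 and bars for the mean and SD (n = 3). The lincRNA panel alone shows all 3 old libraries, at 3163 RPM or more, above every young and curcumin library. Of all 520 tested features, 4.04% did not overlap between old and young mice and 12.7% between curcumin and old mice. Replicate 1 is the lowest of each group in piRNAdb-piRNA and Rfam-DNA.

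Of the 32 classes, 24 passed the filter on low counts and were tested with all other features. The 8 that did not pass were near or at 0. Ensembl scRNA held 71 reads over the 9 libraries, Rfam-tRNA 7, Ensembl sRNA 4, 3′ overlapping non-coding RNA 3, and Rfam-scRNA and macro lncRNA 1 each. Rfam-piRNA and Rfam-pseudogene were listed at 0 reads in every library, which allows up to 0.233 RPM in the shallowest.

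Between old and young mice no class passed the test, and lincRNA was the class whose libraries lay apart. Of the 24 tested classes 0 passed edgeR's quasi-likelihood test at an adjusted p under 0.05, where 0% of all 520 tested features passed. Unadjusted p were under 0.05 for 0 of the 24 classes and for 4 of the 520 features by edgeR, for 5 features by DESeq2 and for 3 by limma-voom, and the last 2 also made 0 adjusted calls. Fitted differences were positive for 16 classes and negative for 8, with a median of 0.10 on the log2 scale, where 211 of all features were positive, 309 negative and the median was -0.08. Of the 6 long non-coding classes tested, 5 were positive. The 3 smallest p-values belonged to lincRNA, to Ensembl rRNA (log2 difference 0.43, 95% interval -0.38 to 1.24) and to Rfam-other (0.51, -0.55 to 1.56). Single libraries moved the last 2. Rfam-other was 0.21 without old replicate 1 and 1.24 without young replicate 2 (edgeR adjusted p = 0.985). Ensembl rRNA was 0.227 without young replicate 1 and 0.715 without young replicate 3. With genome-matched reads only, which were 1.32% to 3.89% of its reads, Rfam-other was 0.027. lincRNA was the 1 class of 24 whose old and young libraries did not overlap, a share close to the 4.04% of all features that did not overlap.

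Between curcumin and old mice no class passed the test. All 6 long non-coding classes had a negative fitted difference (median -0.13). Processed transcripts (-0.03) and antisense transcripts (-0.04) were near 0 with overlapping libraries, and each turned positive when 1 library was left out, to at most 0.045 and 0.026. Of the 6, lincRNA and the bidirectional promoter class (-0.19, 95% interval -0.89 to 0.51) did not overlap between the groups. These were 2 of the 24 tested classes, against 12.7% of all features. In the bidirectional promoter class the closest libraries were at 24.48 RPM (curcumin) and 24.56 RPM (old). By edgeR 0 classes and 0% of features passed, 0 classes and 20 of 520 features had an unadjusted p under 0.05, and DESeq2 and limma-voom made 0 calls with 29 and 23 features under 0.05 unadjusted. In all, 7 classes were positive and 17 negative, with a median of -0.10, where 383 features were positive, 137 negative and the median over all was 0.31. Ensembl rRNA differed by -0.41 (95% interval -1.22 to 0.40). The curcumin libraries, at 160 to 170 RPM, lay within the range of the old ones, at 125 to 270 RPM, and without the libraries numbered 1 the difference was -0.72 (edgeR adjusted p = 0.114).

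Between curcumin and young mice 0 of 24 classes passed edgeR's test, as did 0% of features, and 0 classes and 20 features had an unadjusted p under 0.05. DESeq2 made 1 call, in a tRNA fragment outside these classes, with 27 features under 0.05 unadjusted, and limma-voom made 0 with 22. Positive differences numbered 13 and negative ones 11, with a median of 0.01 against 0.19 over all features. No class had groups that did not overlap, against 9.42% of all features. The smallest p-values belonged to Rfam-DNA (-0.26, 95% interval -0.82 to 0.30), antisense transcripts (-0.19, -0.68 to 0.30) and Rfam-other_RNA (-0.42, -1.48 to 0.65). Without the libraries numbered 1 edgeR called 33 of 521 features (6.33%) both here and between curcumin and old mice, and 0 (0%) between old and young mice. None of those features was 1 of the 25 classes tested in that fit. The classes with an unadjusted p under 0.05 there were Ensembl rRNA between curcumin and old mice, and Rfam-snRNA (0.74) and Rfam-other_RNA (-0.65) between curcumin and young mice.

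**Figure D5:**
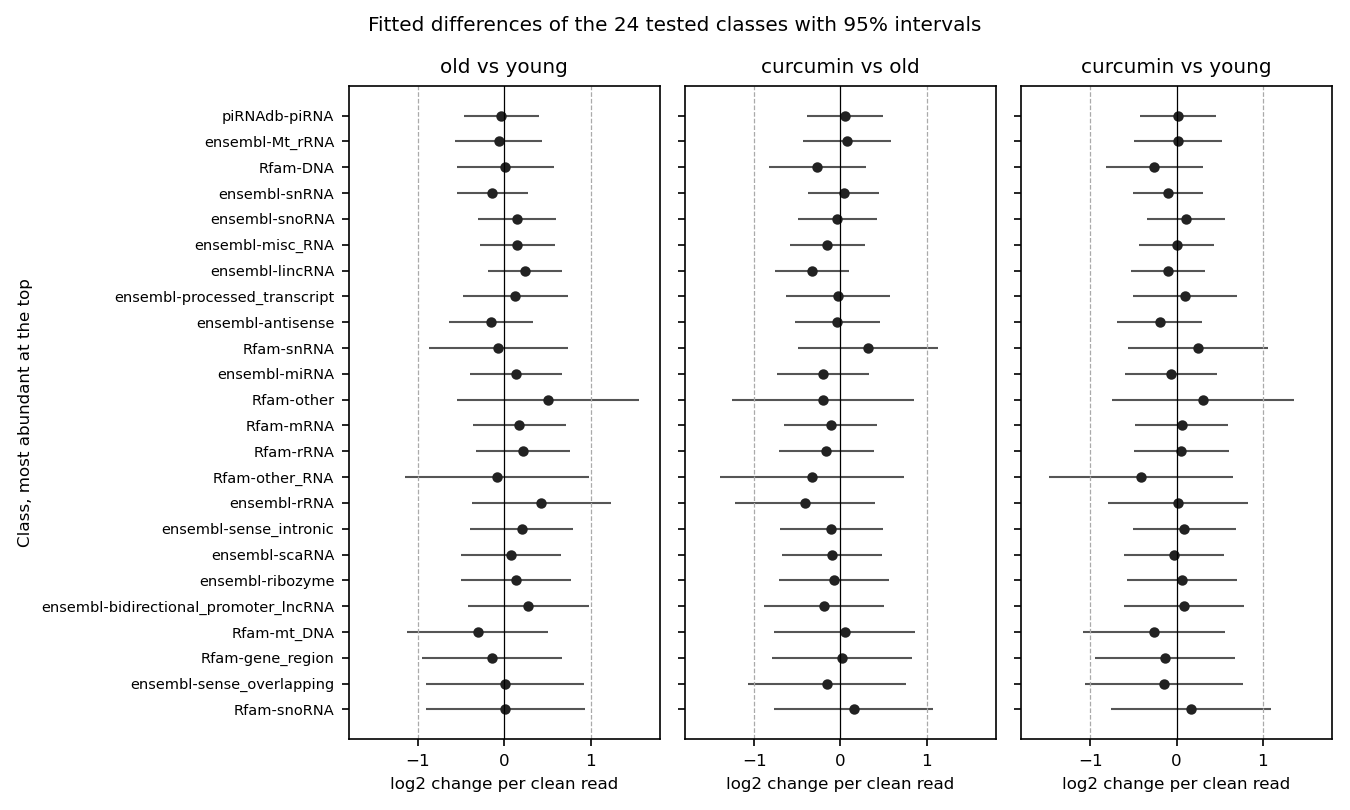
Fitted log2 difference per clean read (points) and 95% interval (lines) of the 24 tested classes in the 3 comparisons, ordered by mean RPM. Every interval spans 0, and 20, 18 and 18 of the 24 lie wholly between -1 and 1 (dashed lines) in the panels from left to right.

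The intervals bound how large a difference these libraries could hide, given edgeR's standard errors and clean reads as library size. Between old and young mice 20 of 24 intervals lay within a 2-fold change in either direction, and 18 did in each of the other comparisons. For the piRNA class, fold changes below 0.721 and above 1.32 lay outside the interval between old and young mice. The median standard error was 0.26 over the tested classes and 0.49 over all features. The tested classes had a median coefficient of variation of 13.9% over the 9 libraries (7.61% to 40.1%), against 44.8% for 209 miRNAs, 37.9% for 277 tRNA parts and 19.2% for the 10 rRNAs and Y RNAs. The median level of the classes was 412 RPM that of the miRNAs 6.48 RPM and that of the rRNAs and Y RNAs 19730 RPM, and a class sums many RNAs, so the kinds differ in depth as well.

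The signs of small differences depended on the scaling. With TMM scaling in place of clean reads, the median difference of all features moved by -0.23 between curcumin and old mice and by -0.19 between curcumin and young mice, and by 0.05 between old and young mice. With it 23 of 24 classes were negative between curcumin and old mice and 22 of 24 between curcumin and young mice, while 15 were positive between old and young mice. The lincRNA difference between curcumin and old mice was then -0.57 (edgeR unadjusted p = 0.0184, adjusted p = 0.917). With RLE scaling it was -0.57 as well (edgeR unadjusted p = 0.0183, adjusted p = 0.925). No class passed the adjusted threshold with either scaling.

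Levels of some Ensembl classes were also set against the length of annotated RNA. Against the summed length of the longest transcript of each gene in GENCODE vM21, Mt_rRNA was at 5815 RPM per kilobase in young mice, 5548 in old and 5863 in curcumin mice. The snRNA class, of 1385 genes, was at 69.1, 62.8 and 64.5 RPM per kilobase, and the snoRNA class, of 1507 genes, at 38.0, 42.0 and 41.0. The lincRNA class was at 0.351, 0.414 and 0.328 RPM per kilobase and the antisense class at 0.314, 0.282 and 0.275, both far below the structured RNAs. The order Mt_rRNA, snRNA, snoRNA was the same in the 3 groups. It ranks the classes only as they were counted. Mt_rRNA leaves out the mitochondrial rRNA reads placed in rRNAdb, while its 2 genes enter at full length. Annotated snRNA transcripts had a median length of 107 bases, snoRNA transcripts 127 and lincRNA transcripts 805, all beyond the gel fraction. The Ensembl release behind the deposited classes is not given in the sources used here, and the annotation counts genes whether or not they are expressed in the atrium.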

How the data were processed

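Each of the 9 libraries came with 1 deposited table of annotated reads in expected counts: per the file headers, reads are listed by class and subclass, split by genome match, and some values are fractions because a read was shared among annotations. The submitters' processing notes name cutadapt 2.5 and build mm10; the sources used here do not name the annotation tool, its settings or the database releases, nor say how molecular identifiers were treated. Per the labels, reads were single-end over 75 cycles. Class totals were used, matched and unmatched reads were summed, and values were rounded to whole counts. Each read counted once, with class sums within 23 reads of the clean reads, and 12.7% to 16.3% of reads without annotation were left out of features but kept in the totals.

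The 996 features were fitted together with edgeR's quasi-likelihood model (edgeR 4.0.16, R 4.3.3), with robust estimation, group as the only term, clean reads as library size and filterByExpr. Benjamini-Hochberg adjustment ran over the 520 features kept, with a threshold of 0.05. Intervals of differences are the standard error times the t quantile of the fit. Values were named for the 12 classes with the most reads and the 3 smallest p in each comparison, and other classes by range or as members of a group of classes, with bidirectional promoter transcripts named after their values were seen. The classes, lists and comparisons were chosen with earlier results of these data known. Marker precursors were matched by name, with mir-142 read as mir-142a.

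Replicate numbers recur in the 3 groups. Deviations of same-numbered libraries from their group means correlated at 0.308 to 0.803 between old and young mice. Between curcumin and young mice they correlated at 0.188 to 0.328. Every pair of these comparisons exceeded 0.1, the rule set for pairing. The reported fit had no term for the number, so its p-values leave any pairing out. A replicate block was fitted only as an alternative. No label says what the number marks. Some differently numbered libraries correlated more: young replicate 3 with old replicate 2 (0.589) and young replicate 2 with curcumin replicate 3 (0.244). Alternatives were TMM and RLE scaling, the total of the 32 classes as library size, DESeq2 1.42.0, limma-voom (limma 3.58.1), no filter, at least 50 reads on average in every group, genome-matched reads only, Ensembl and Rfam classes of an RNA type merged, only the 2 groups compared, a replicate block, and fits without each library or without the 3 libraries numbered 1.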

Additional observations from a re-analysis of the deposited data

How the results depend on the processing

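Over 21 settings, 793 of 879 alternative differences of the 14 named classes kept their sign, and none of the 879 passed the threshold. Of the 86 that did not, 11 had a value that rounds to 0.00 on 1 side. The other 75 are covered below, those from leaving out 1 library only by the lowest and highest value of each class. The differences of these 75 were at most 0.51 in size on the log2 scale with the reported settings. With TMM and RLE scaling in turn, the difference between old and young mice became -0.016 and -0.02 for Rfam-DNA. Between curcumin and old mice it became -0.20 and -0.20 for piRNA, -0.14 and -0.15 for Mt_rRNA, and -0.20 and -0.21 for Ensembl snRNA. Between curcumin and young mice it became -0.24 and -0.25 for piRNA, -0.20 and -0.20 for Mt_rRNA, -0.082 and -0.089 for Ensembl snoRNA, -0.062 and -0.069 for processed transcripts, -0.25 and -0.26 for Ensembl rRNA, and, with RLE, -0.014 for Rfam-other. With genome-matched reads only, Rfam-other (0.26) and Rfam-other_RNA (0.51) turned between curcumin and old mice. Between curcumin and young mice Ensembl rRNA (-0.027) and Rfam-other_RNA (0.36) turned. Matched reads were only 1.32% to 3.89% of Rfam-other and 2.16% to 7.31% of Rfam-other_RNA. Rfam-snRNA had no matched reads and gave no value. With limma-voom Rfam-other_RNA was 0.066 between old and young mice and Mt_rRNA -0.017 between curcumin and young mice, where the total of the 32 classes as library size gave -0.012 and the merged snRNA class -0.075.

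Without the libraries numbered 1, Rfam-DNA (-0.085), Rfam-snRNA (0.15) and Rfam-other (-0.082) turned between old and young mice. Ensembl snRNA (-0.10), processed transcripts (0.034) and Rfam-other (0.072) turned between curcumin and old mice, and lincRNA (0.012), Rfam-other (-0.01) and Ensembl rRNA (-0.22) between curcumin and young mice. The number of features called was then 33 in both comparisons with curcumin, and 1 with DESeq2 between curcumin and young mice with all libraries. The cause was not tested.

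Leaving out 1 library at a time gave these lowest and highest values. Between old and young mice they were -0.17 and 0.072 for piRNA, -0.20 and 0.21 for Rfam-DNA, -0.47 and 0.21 for Rfam-other_RNA, -0.29 and 0.34 for Rfam-snRNA, -0.20 and 0.032 for Mt_rRNA, -0.009 and 0.25 for Ensembl miRNA, and -0.065 and 0.44 for processed transcripts. Without a change of sign they were 0.21 and 1.24 for Rfam-other and 0.227 and 0.715 for Ensembl rRNA. Between curcumin and old mice they were -0.065 and 0.19 for piRNA, -0.41 and 0.10 for Rfam-other, -0.57 and 0.048 for Rfam-other_RNA, -0.036 and 0.27 for Mt_rRNA, -0.14 and 0.026 for antisense, -0.15 and 0.045 for processed transcripts, -0.073 and 0.10 for Ensembl snRNA, and -0.12 and 0.02 for Ensembl snoRNA. Between curcumin and young mice they were -0.12 and 0.15 for piRNA, -0.10 and 0.20 for Mt_rRNA, -0.21 and 0.052 for Ensembl miRNA, -0.10 and 0.41 for processed transcripts, -0.19 and 0.30 for Ensembl rRNA, and -0.019 and 0.27 for Ensembl snoRNA.

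With genome-matched reads only, above and below the line, the 32 classes held 12.7% (young mice), 12.7% (old mice) and 12.8% (curcumin mice) of the reads. The replicate block left the classes called at 0 in all 3 comparisons, and lincRNA at -0.33 between curcumin and old mice (edgeR adjusted p = 0.499). Same-numbered curcumin and old libraries deviated together unevenly, with correlations of -0.10 to 0.39. Over all settings the lincRNA difference between curcumin and old mice lay between -0.57 and -0.27, with edgeR, DESeq2 or limma adjusted p of 0.316 to 0.999. Depth limits the 8 classes left untested, which held at most 71 reads each.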
